A study of Mus musculus with 8 samples.

Results

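Interleukin-1 (IL1) family cytokines and the inflammasome that matures them were examined in the lumbar spinal cord of SOD1G93A mice whose microglia had lost *Ager*, the gene for RAGE, a cell-surface receptor of glycated and alarmin proteins. The group held 10 genes, taken by symbol from a table of 55291 genes: the ligands *Il1a*, *Il1b*, *Il18* and *Il33*, the receptor antagonist *Il1rn*, the receptor chains *Il1r1* and *Il1rap*, and the inflammasome genes *Nlrp3*, *Pycard* and *Casp1*. All 10 were in the table and all 10 passed the filter on low counts that left 19470 genes for testing.

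All 8 mice were males on the C57BL/6J background that carried the mutant human SOD1G93A transgene and 1 Cx3cr1 allele replaced by a tamoxifen-inducible Cre, so every animal was heterozygous for *Cx3cr1* and received tamoxifen (TAM). In the *Ager*-deleted group (Ager fl/fl Cx3cr1 Cre/+; E1776, E5231, E5248, E5568) both *Ager* alleles were floxed, and in the Cre control group (Ager+/+ Cx3cr1 Cre/+; E5386, E5642, E6578, E6732) both were intact. Per the labels, TAM was injected 5 times from the age of 12 weeks and tissue was taken at 120 days. The study's methods give a slightly later age for TAM, and its results section places collection at end-stage. The Cre acts in cells that express *Cx3cr1*, chiefly microglia, while the RNA was from whole cord, and the series analysed here holds no mice without the SOD1G93A transgene. Fewer cells of a type and less RNA per cell cannot be told apart in such samples.

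IL-1α and IL-1β signal through IL1R1 paired with the accessory chain IL1RAP, and IL1RN occupies IL1R1 without signaling. Pro-IL-1β and pro-IL-18 are cut to their active forms by caspase-1, which is activated when the sensor NLRP3 recruits it through the adaptor PYCARD (ASC), whereas IL-1α and IL-33 act as alarmins that injured or dying cells release without that cut. In the central nervous system microglia are a main source of IL-1α, IL-1β and the inflammasome proteins, oligodendrocytes and astrocytes express IL-33, and RAGE signals to NF-κB, which drives transcription of *Il1b* and *Nlrp3*. Assembly of the inflammasome and cleavage of its substrates take place at the protein level and were not measured by RNA-seq.

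*Il1a*, *Il1b* and *Il1rn* lie on chromosome 2 and *Casp1* and *Il18* on chromosome 9, and the other 5 genes are on chromosomes of their own. On GRCm38, *Il1a* (chr2:129299610-129309972) and *Il1b* (chr2:129364570-129371139) are neighbours on the minus strand with 54597 bp between them; their exons share 222 and 25 bp with transcripts of the opposite strand, whose reads could be told apart only if the counting used strand. The 250 bases directly before the annotated start were taken from RefSeq (GRCm38.p6) for all 10 genes, which gave 15 promoters because some genes have several starts. They were searched on both strands for a TATA box (TATAAA), a C/EBP-like motif (TTGCNNAA) and the GAGGAA core bound by PU.1, the lineage factor of microglia and macrophages. Sequences of both IL-1 ligands and of *Casp1* and *Pycard*, whose levels had the same highest and the same lowest mouse, are shown 5′ to 3′ on the strand of the gene, with every motif match in capitals.
Il1a, minus strand, chr2:129309973-129310222: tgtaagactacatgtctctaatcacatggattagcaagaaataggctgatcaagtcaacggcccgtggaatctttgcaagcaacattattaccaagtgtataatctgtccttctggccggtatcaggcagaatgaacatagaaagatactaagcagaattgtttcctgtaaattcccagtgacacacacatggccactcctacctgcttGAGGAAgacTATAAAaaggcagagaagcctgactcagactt
Il1b, minus strand, chr2:129371140-129371389: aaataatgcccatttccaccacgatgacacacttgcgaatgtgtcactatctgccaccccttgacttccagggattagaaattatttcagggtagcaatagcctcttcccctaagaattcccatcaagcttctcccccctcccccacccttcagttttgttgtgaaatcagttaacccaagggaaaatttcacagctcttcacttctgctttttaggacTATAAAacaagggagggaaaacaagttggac
Casp1, plus strand, chr9:5298267-5298516: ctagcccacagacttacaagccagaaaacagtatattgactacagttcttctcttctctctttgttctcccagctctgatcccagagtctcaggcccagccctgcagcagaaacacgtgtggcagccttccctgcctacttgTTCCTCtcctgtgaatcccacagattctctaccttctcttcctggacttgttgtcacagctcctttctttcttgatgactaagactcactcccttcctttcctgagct
Pycard, minus strand, chr7:127993868-127994117: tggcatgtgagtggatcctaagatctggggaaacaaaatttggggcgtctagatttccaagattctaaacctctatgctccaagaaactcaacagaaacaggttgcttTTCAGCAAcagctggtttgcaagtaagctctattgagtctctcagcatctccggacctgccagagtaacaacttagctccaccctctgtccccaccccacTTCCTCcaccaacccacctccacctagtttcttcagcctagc

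*Il1a* and *Il1b* both held a TATA box close to the start, with its first base at -32 and -31. The motif was found in 5 of the 15 promoters of these genes, among them *Il33* at -29, and in 12.4% of 32851 mouse promoters. *Il1a* also held the PU.1 core at -41, *Pycard* at -42 and *Casp1* at -108, the last 2 on the opposite strand. The core was present in 4 of the 15 promoters, among them *Nlrp3* at -220, -129 and -36, against 23.3% of all promoters. The C/EBP-like motif was present in 3 of the 15 (9.56% of all promoters), among them *Pycard* at -142. These matches are a description of the letters and not evidence of binding.

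Total counts on genes ranged from 31148047 to 40324897 per mouse. CPM are counts of a gene relative to all counts of its mouse, after TMM (trimmed mean of M values) normalization unless stated otherwise. Before that normalization, 3 counts of a gene correspond to at most 0.0963 CPM at these depths. *Ager* itself was lower in all 4 *Ager*-deleted mice (0.889, 1.51, 1.02 and 1.34 CPM) than in all 4 controls (1.53, 2.22, 2.18 and 2.41 CPM), although 1.51 and 1.53 are close together. Its log2 fold change was -0.81 ± 0.22 (SE), with an exact two-sided permutation p = 0.0286, the smallest that 4 mice against 4 can give, and an adjusted p = 0.252 over all genes in edgeR's exact test. Genes outside the central nervous system marked some control libraries: the summed level of 18 skeletal muscle markers was 1290 CPM in E5386 and 1910 CPM in E5642 against 139 to 164 CPM in the other mice, 8 adipocyte markers reached 162 CPM in E5386, and 10 liver markers reached 657 CPM in E6732. Microglial identity was present throughout, with each of 17 microglial markers at 548 counts or more in every mouse.

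None of the 10 genes passed the test for a difference between genotypes. In edgeR's exact test 0 of 10 passed an adjusted p of 0.05, where 14 of the 19470 genes tested (0.0719%) passed: 0 of 10 were higher after *Ager* deletion (0.0103% of all genes) and 0 of 10 lower (0.0616%). With common and tagwise dispersions 0 of 10 passed (0.401% of all genes). In its quasi-likelihood test 0 of 10 passed (0.00514% of all genes), and an unadjusted p under 0.05 was reached by 0 of 10 in the exact test (4.26% of all genes) and by 0 of 10 in the quasi-likelihood test (6.71%). The genotypes overlapped for every one of the 10, whereas 3.88% of all genes had no overlap between the groups. The log2 fold change was above 0 for 3 of the 10 and for 52% of all genes tested, and its median was -0.10 over the 10 and 0.01 over all genes.

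**Figure D1:**
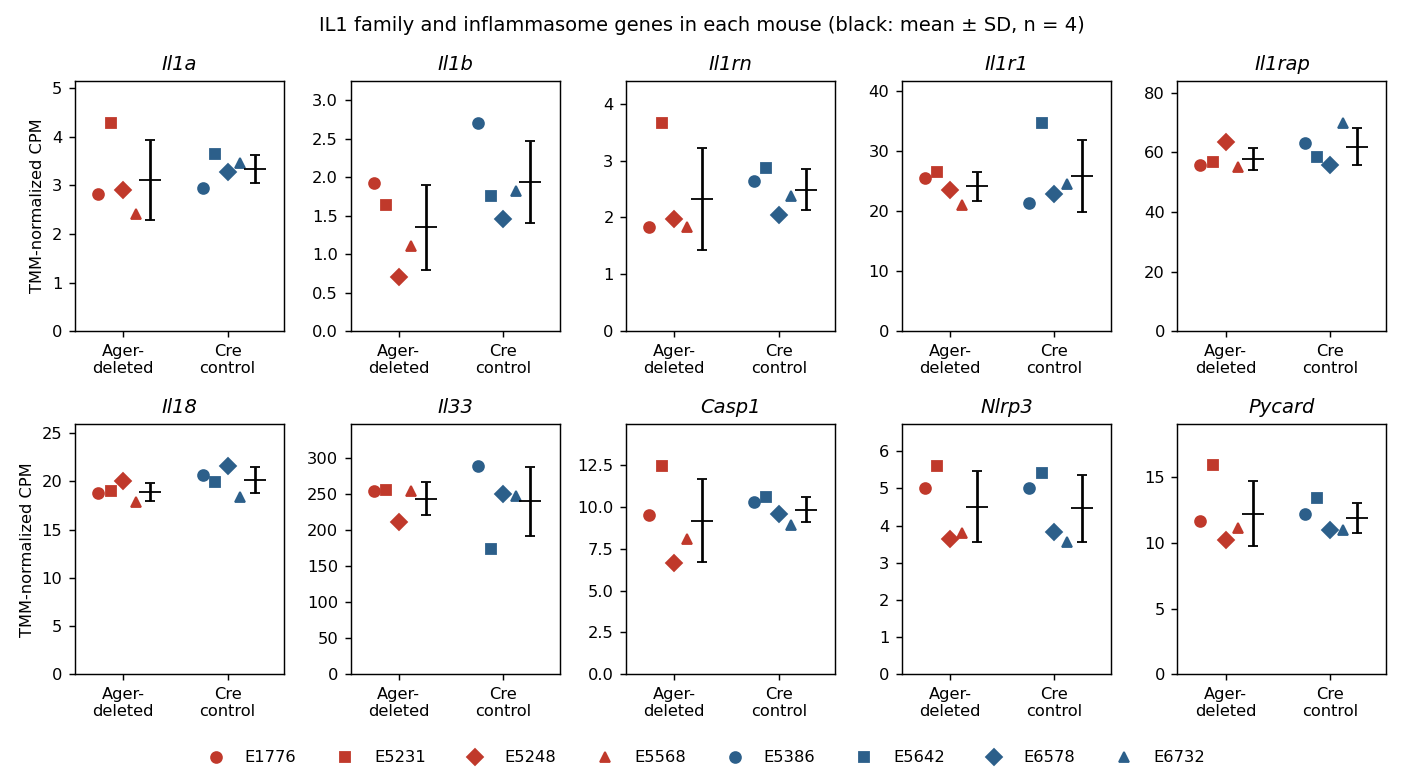
TMM-normalized CPM (linear axes from 0) of each gene in each mouse, with symbols for single mice, red for *Ager*-deleted and blue for Cre control, and the black bar giving mean ± SD (n = 4). The ranges of the groups overlap in all 10 panels, and E5231 (red square) is the highest mouse for *Il1a*, *Il1rn*, *Casp1*, *Nlrp3* and *Pycard*.

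Messenger RNA for the ligands of IL1R1 was scarce. Values are given throughout in the order E1776, E5231, E5248, E5568 for *Ager* deletion and E5386, E5642, E6578, E6732 for controls. *Il1a* measured 2.82, 4.29, 2.91 and 2.40 CPM after *Ager* deletion, and 2.95, 3.64, 3.28 and 3.45 CPM in controls. Of the *Ager*-deleted mice, 3 lay below every control and E5231 lay above every control. The means were 3.10 ± 0.82 and 3.33 ± 0.29 CPM (SD, n = 4). On the log2 scale the fold change was -0.10 ± 0.18 (SE), with a 95% confidence interval (CI) of -0.51 to 0.30, from 93 to 159 counts per mouse. It was -0.30 without E5231 and 0.0025 without E5568, neither past the test.

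*Il1b*, the cytokine that the inflammasome matures, had the largest difference of the 10. It measured 1.93, 1.64, 0.705 and 1.11 CPM after *Ager* deletion and 2.71, 1.76, 1.46 and 1.82 CPM in controls. E5248 and E5568 were below all controls, E1776 was above 3 of them, and the highest value belonged to E5386. The log2 fold change was -0.52 ± 0.30 (SE), with a 95% CI of -1.20 to 0.15, or 0.436 to 1.11 times the control level. The difference did not pass the test (edgeR's exact test p = 0.118, adjusted p = 1; exact permutation p = 0.2). It rests on 25 to 99 counts per mouse and moved from -0.52 to -0.29 on the log2 scale when E5386 and E5642, the controls with high muscle markers, were left out, to -0.33 without E5386 alone and to -0.31 without E5248. Markers of neutrophils and monocytes, which also make IL-1β, summed to 98.4, 358, 121 and 230 CPM in the *Ager*-deleted mice and to 358, 348, 129 and 219 CPM in controls; all 14 of these markers had a log2 fold change below 0 and 0 of 14 passed the test. Their part in the *Il1b* values was not tested.

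For the antagonist *Il1rn*, the *Ager*-deleted mice gave 1.83, 3.67, 1.98 and 1.84 CPM and the controls 2.65, 2.87, 2.05 and 2.38 CPM. The pattern matched that of *Il1a*, with E5231 above and the other 3 *Ager*-deleted mice below every control. The log2 fold change was -0.10 ± 0.24 (SE; 95% CI -0.63 to 0.44), and without E5231 it was -0.41, still short of the test. The balance of ligand to antagonist was therefore compared within each mouse, per kilobase of exon. *Il1a* exceeded *Il1rn* by a ratio of 3.28 to 4.32 after *Ager* deletion and 3.12 to 4.50 in controls (difference 0.02 on the log2 scale, exact permutation p = 0.886). The ratio of *Il1b* to *Il1rn* was 3.06, 1.30, 1.04 and 1.76 in *Ager*-deleted mice and 2.96, 1.78, 2.07 and 2.22 in controls. On the log2 scale the difference was -0.43, with an SD of 0.68 in *Ager*-deleted mice and 0.31 in controls. It did not pass the test (exact permutation p = 0.314). For *Il1a* over *Il1b* the difference was 0.46 (log2; exact permutation p = 0.343), and over these 3 ratios the smallest adjusted p was 0.515.

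*Il18* and *Il33* were more abundant than the IL1R1 ligands, and neither passed the test between genotypes. *Il18*, the other cytokine cut by caspase-1, had the narrowest spread of the group, with a coefficient of variation of 6.44% over the 8 mice. It measured 18.8, 19.0, 20.0 and 17.8 CPM in *Ager*-deleted mice and 20.6, 19.9, 21.6 and 18.4 CPM in controls. The log2 fold change of -0.09 ± 0.07 (SE) had a 95% CI of -0.26 to 0.07, so the interval spans 0.838 to 1.05 times the control level.

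*Il33*, the alarmin ligand of the receptor ST2, was the most abundant member. It measured 254, 256, 211 and 255 CPM in *Ager*-deleted mice and 289, 174, 250 and 248 CPM in controls. Of the 8 mice, 6 lay between 248 and 289 CPM, and the 2 low values came from E5248 and from E5642, which had the highest muscle marker level. The log2 fold change was 0.02 ± 0.14 (SE; 95% CI -0.28 to 0.32). It was -0.11 without E5642, 0.11 without E5386 and 0.09 without E5248, none past the test.

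The receptor chains also overlapped between genotypes. *Il1r1* measured 25.6, 26.5, 23.6 and 21.0 CPM after *Ager* deletion and 21.4, 34.8, 22.9 and 24.5 CPM in controls. E5642 stood above all other mice, and without it the log2 fold change went from -0.10 ± 0.15 (SE; 95% CI -0.42 to 0.22) to 0.07. *Il1rap*, which serves as the second chain for the IL-1, IL-33 and IL-36 receptors, measured 55.9, 56.7, 63.5 and 55.1 CPM in *Ager*-deleted mice and 63.2, 58.6, 55.8 and 70.0 CPM in controls. Its log2 fold change was -0.10 ± 0.08 (SE; 95% CI -0.28 to 0.08), and -0.03 without E6732, its highest mouse. Its values in 8 mice spanned 1.27-fold.

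Transcripts of the inflammasome sensor, adaptor and protease did not pass the test between genotypes but shared a pattern among mice. *Nlrp3* measured 5.0, 5.61, 3.64 and 3.80 CPM in *Ager*-deleted mice and 5.0, 5.43, 3.84 and 3.57 CPM in controls. Each genotype thus held 2 mice at about 5 CPM or more and 2 below 4 CPM, and the log2 fold change was 0.02 ± 0.19 (SE; 95% CI -0.40 to 0.44). Without E5386 and E5642, the control mice at about 5 CPM or more, it was 0.28, not past the test.

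*Pycard* measured 11.7, 15.9, 10.2 and 11.1 CPM after *Ager* deletion and 12.2, 13.4, 11.0 and 11.0 CPM in controls, with a log2 fold change of 0.04 ± 0.14 (SE; 95% CI -0.27 to 0.35). *Casp1* measured 9.5, 12.4, 6.66 and 8.09 CPM and 10.3, 10.6, 9.56 and 8.90 CPM, with a log2 fold change of -0.10 ± 0.17 (SE; 95% CI -0.48 to 0.28). For both genes E5231 was the highest and E5248 the lowest of the 8 mice, so the *Ager*-deleted group held both ends of the range. Without E5231 the log2 fold change was -0.11 for *Pycard* and -0.28 for *Casp1*. Without E5248 it was 0.12 for *Pycard* and 0.027 for *Casp1*, and none of these values passed the test. The SD of *Casp1* was 2.46 CPM in *Ager*-deleted mice and 0.748 CPM in controls, and that of *Pycard* 2.49 and 1.13 CPM; the difference in spread was not tested. Adjusted over all genes, p was 1 for each of the 10 in the exact test of edgeR and 0.793 to 0.995 in its quasi-likelihood test.

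**Figure D2:**
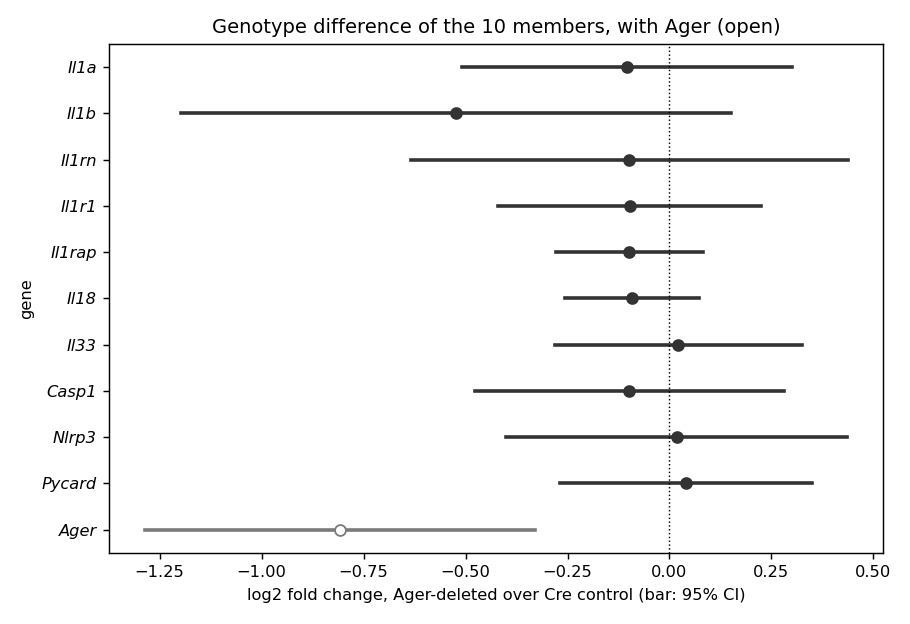
Log2 fold change of each gene, *Ager*-deleted over Cre control, with its 95% CI from edgeR's quasi-likelihood fit (4 mice per group) and *Ager* as an open circle for reference. Every interval of the 10 genes includes 0, and the interval of *Il1b* (-1.20 to 0.15) is the widest while that of *Il18* (-0.26 to 0.07) is the narrowest.

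Levels of the genes were compared with each other as CPM per kilobase of merged exons of all annotated isoforms. This scale lowers genes with long or rarely used exons such as *Il1rap*, *Il1rn* and *Pycard*. *Il33* led at 83.9 ± 12.0 (SD, n = 8 mice), followed by *Il18* at 18.9 ± 1.22, *Casp1* at 6.34 ± 1.15, *Il1rap* at 5.27 ± 0.46, *Il1r1* at 3.93 ± 0.69, *Pycard* at 3.17 ± 0.47, *Il1a* at 1.63 ± 0.29, *Nlrp3* at 1.11 ± 0.21, *Il1b* at 0.862 ± 0.311 and *Il1rn* at 0.435 ± 0.115 CPM per kb. The ranges over mice were separate between *Il33* and *Il18*, between *Il18* and *Casp1*, and between *Pycard* and *Il1a*, and overlapped for every other pair of neighbours in this order. The alarmin *Il33* and the caspase-1 substrate *Il18* were thus at the top, and the 3 genes of the IL1R1 ligand and antagonist group were among the lowest 4. Per kilobase, *Il1a* was nonetheless above *Nlrp3* and *Il1b* above *Il1rn* in each of the 8 mice. Both orders depend on exon length. In CPM the means over the 8 mice ran the other way, at 4.49 for *Nlrp3* and 3.22 for *Il1a*, and at 2.41 for *Il1rn* and 1.64 for *Il1b*.

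Over the 8 mice of both genotypes the highest value exceeded the lowest by 3.84-fold for *Il1b*, 2.00-fold for *Il1rn*, 1.87-fold for *Casp1* and 1.78-fold for *Il1a*. E5231 was the highest mouse for 5 of the 10 genes and among the top 2 for 7. E5568 was the lowest for 4 and among the bottom 2 for 7, and E5248 was the lowest for 3. All 3 belonged to the *Ager*-deleted group.

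The level of microglial markers was ordered in a similar way. The 17 markers summed to 3300, 3750, 2100 and 2510 CPM after *Ager* deletion and to 3120, 3120, 2970 and 2740 CPM in the controls. E5231 was highest, and E5248 and E5568 were lowest. The mean log2(CPM + 1) of the markers differed by -0.10 between genotypes (exact permutation p = 0.571). Of the 17 markers, 15 overlapped between genotypes, and *P2ry12* and *Gpr34*, named here after their values were seen, were lower in every *Ager*-deleted mouse than in every control without passing edgeR's exact test (adjusted p = 0.507 and 0.0848), where 3.88% of all genes had no overlap. Astrocyte and neuron markers were also ordered along the mice. From the mouse with the highest microglial level to the lowest (E5231, E5386, E1776, E5642, E6578, E6732, E5568, E5248), 10 astrocyte markers summed to 18000, 17900, 19300, 17700, 16500, 15800, 15300 and 13700 CPM, and 11 neuron markers to 2730, 2870, 2910, 3100, 3550, 3220, 3420 and 3710 CPM. The astrocyte sum was thus lower, and the neuron sum higher, toward the mice with the fewest microglial transcripts. *Gfap*, at a mean of 9053 CPM, and *Snap25*, at 1480 CPM, weigh most in these sums. The sum of 10 endothelial markers was also lowest in E5568 and E5248, at 253 and 270 CPM.

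**Figure D3:**
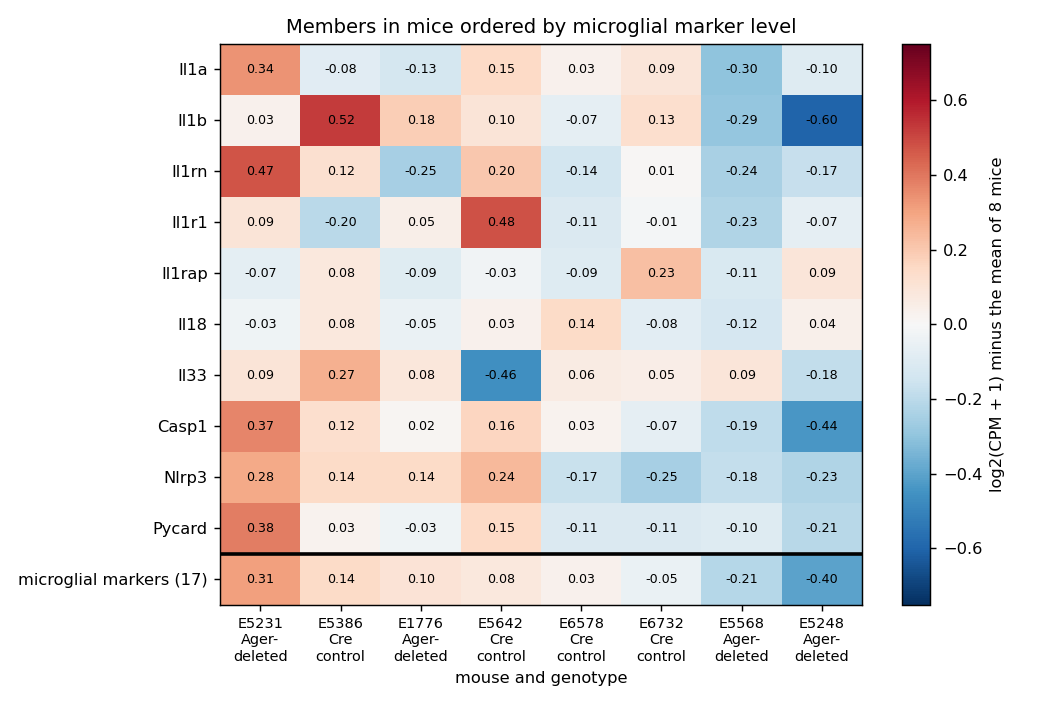
Difference of each gene from its mean over the 8 mice on the log2(CPM + 1) scale, with mice ordered from left to right by the level of 17 microglial markers (bottom row) and labelled by genotype. *Casp1* runs from 0.37 in E5231 to -0.44 in E5248 as the markers run from 0.31 to -0.40, while *Il18* stays between -0.12 and 0.14.

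Each gene was compared with the microglial marker level across the 8 mice, 10 relations in all, with p from exact permutation over all pairings. Both measures come from the same libraries, and none of the 10 genes is among the markers. Relations with the astrocyte and neuron levels, which moved along the same order of mice, were not tested, so nothing here is particular to microglia. *Casp1* followed the markers most closely (Pearson's r = 0.978, permutation p = 0.000198, adjusted 0.00198; Spearman's rho = 0.881, permutation p = 0.00724, adjusted 0.0357). The relation held at r = 0.933 over the 6 mice left after E5248 and E5568, the mice farthest from the median marker level, were removed, and at r = 0.983 without E5386 and E5642. *Pycard* (r = 0.815, permutation p = 0.0144, adjusted 0.0480; rho = 0.857, permutation p = 0.0107, adjusted 0.0357) and *Nlrp3* (r = 0.799, permutation p = 0.00786, adjusted 0.0393; rho = 0.857, permutation p = 0.0107, adjusted 0.0357) followed them as well, with r = 0.888 and r = 0.813 over the same 6 mice. The 3 inflammasome genes were the ones of the 10 whose relation passed after adjustment. Within the 4 *Ager*-deleted mice r was 0.983 for *Casp1*, 0.906 for *Pycard* and 0.985 for *Nlrp3*. Within the 4 controls it was 0.895, 0.663 and 0.838 in the same order. Relations within a genotype were not tested, as each rests on 4 mice only.

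*Il1b* reached r = 0.785 (permutation p = 0.0237, adjusted 0.0592; rho = 0.667, permutation p = 0.0831) over 8 mice. Without E5248 and E5568 its r was 0.091, so the value over 8 mice depends on those mice. Within the *Ager*-deleted mice its r was 0.898 and within the controls 0.633, neither of them tested. *Il1rn* (r = 0.689) and *Il1a* (r = 0.628) did not pass the permutation test (p = 0.0587 and 0.0960). *Il1r1* (r = 0.332), *Il33* (r = 0.274), *Il18* (r = 0.121) and *Il1rap* (r = -0.260) gave permutation p from 0.410 to 0.775. Without E5386 and E5642, r was 0.743 for *Il33*, whose rho over 8 mice was 0.571 (permutation p = 0.151), 0.662 for *Il1r1*, -0.009 for *Il18* and -0.353 for *Il1rap*. Whether the relation of any gene differs from that of another was not tested.

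**Figure D4:**
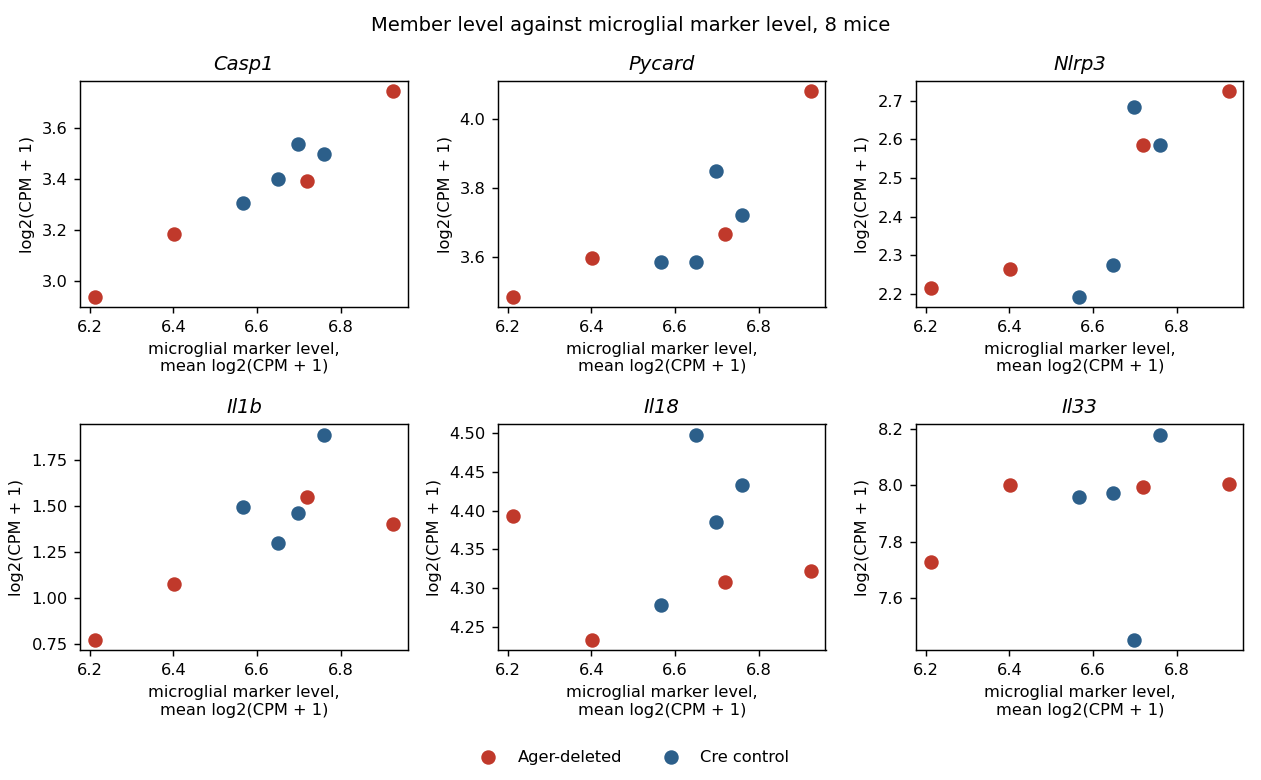
Log2(CPM + 1) of 6 genes (vertical axes, not from 0) against the mean log2(CPM + 1) of 17 microglial markers, with 1 point per mouse, red for *Ager*-deleted and blue for Cre control. *Casp1* rises with the markers (r = 0.978), *Pycard* and *Nlrp3* less tightly (r = 0.815 and 0.799), while r is 0.121 for *Il18* and 0.274 for *Il33*, where control E5642 lies lowest.

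With each mouse's marker level subtracted from its log2(CPM + 1) values, the genotype difference in *Casp1* went from -0.12 to -0.02 and that in *Il1b* from -0.34 to -0.23, while *Nlrp3* and *Pycard* came to 0.12 and 0.13. None of the 10 passed the exact permutation test on this scale, and the smallest p was 0.143, for *Il1b*.

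The wider pathway was read in the same fit. Of 10 IL1 family ligands and antagonists, 6 were tested. Besides the members, only *Il1f9* (IL-36γ) passed the filter, at 13 to 33 counts per mouse. *Il1f5*, *Il1f6* and *Il1f10* had 0 counts in all 8 mice, which at these depths allows up to 0.0963 CPM before TMM normalization, and *Il1f8* had at most 1 count. Of 11 receptors and binding proteins, 10 were tested. In both lists 0 genes passed the test, and the median log2 fold changes were -0.10 and -0.10, against 0.01 for all genes tested.

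Among 26 inflammasome genes, 23 were tested and 0 passed. An unadjusted p under 0.05 was reached by 4 of the 23, all with lower values after *Ager* deletion, beside 4.26% of all genes. *Aim2*, which senses cytosolic double-stranded DNA and uses the same adaptor and protease, was the 1 gene of the 23 without overlap between genotypes, where 3.88% of all genes had none. It measured 16.4, 15.3, 10.2 and 11.3 CPM in *Ager*-deleted mice and 19.7, 17.4, 17.2 and 16.7 CPM in controls. The lowest 2 values belonged to E5248 and E5568, the mice with the lowest microglial marker levels, though E1776 and E5231 were also below every control. Its log2 fold change of -0.41 ± 0.15 (SE) did not pass after adjustment over all genes (edgeR's exact test p = 0.0153, adjusted p = 0.871). *Nlrc4*, the sensor that pairs with NAIP proteins, differed by -0.63 on the log2 scale (adjusted p = 0.968 in the same test). *Nlrp6* differed by -1.35 (log2; adjusted p = 1), which rests on 62 counts in E6732, the control with liver markers, against 6 to 19 counts in the other mice. Over the alternatives the log2 fold change of *Nlrp6* ranged from -1.89 to -0.54. *Nek7*, the kinase that binds NLRP3 during its activation, was the most abundant gene of the list at 97.1 CPM over all mice, and differed by -0.25 on the log2 scale (adjusted p = 1; -0.33 to -0.14 over the alternatives).

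Downstream of the receptor, 24 of 24 signaling genes were tested and 0 passed. Their log2 fold changes stayed between -0.20 and 0.11 with a median of -0.01. The most abundant, *Tollip*, an inhibitory adaptor of IL1R1, was at 154 ± 4.58 CPM in *Ager*-deleted mice and 153 ± 7.96 CPM in controls (SD, n = 4). *Ikbkg*, the regulatory subunit of the IκB kinase, chosen here after its values were seen, was the 1 gene of the 24 without overlap between genotypes (3.88% of all genes) and had a log2 fold change of -0.10.

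Of 28 genes that IL-1 is known to induce, 21 were tested, 0 passed, and the median log2 fold change was -0.09. *Ptgs2*, which encodes the prostaglandin synthase COX-2, was lower in all 4 *Ager*-deleted mice (1.30, 1.54, 1.69 and 1.16 CPM) than in all 4 controls (1.94, 2.47, 1.92 and 1.95 CPM). Its log2 fold change was -0.54 ± 0.17 (SE), short of the threshold after adjustment (edgeR's exact test p = 0.0111, adjusted p = 0.765). It was the 1 gene of the 21 with an unadjusted p under 0.05 (4.26% of all genes) and the 1 without overlap (3.88% of all genes), counts that are near the share over all genes. *Serpina3n*, an acute-phase protease inhibitor of reactive astrocytes and the most abundant gene of the list at 1601 CPM, had a log2 fold change of -0.05 (-0.17 to 0.10 over the alternatives). In 13 astrocyte genes linked to induction by IL-1α, tumor necrosis factor and C1q, 12 were tested and 0 passed, with a median of -0.05. Complement *C3*, the most abundant of them, ranged from 304 to 598 CPM after *Ager* deletion and from 364 to 500 CPM in controls (log2 fold change -0.09, and -0.32 to 0.03 over the alternatives).

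**Figure D5:**
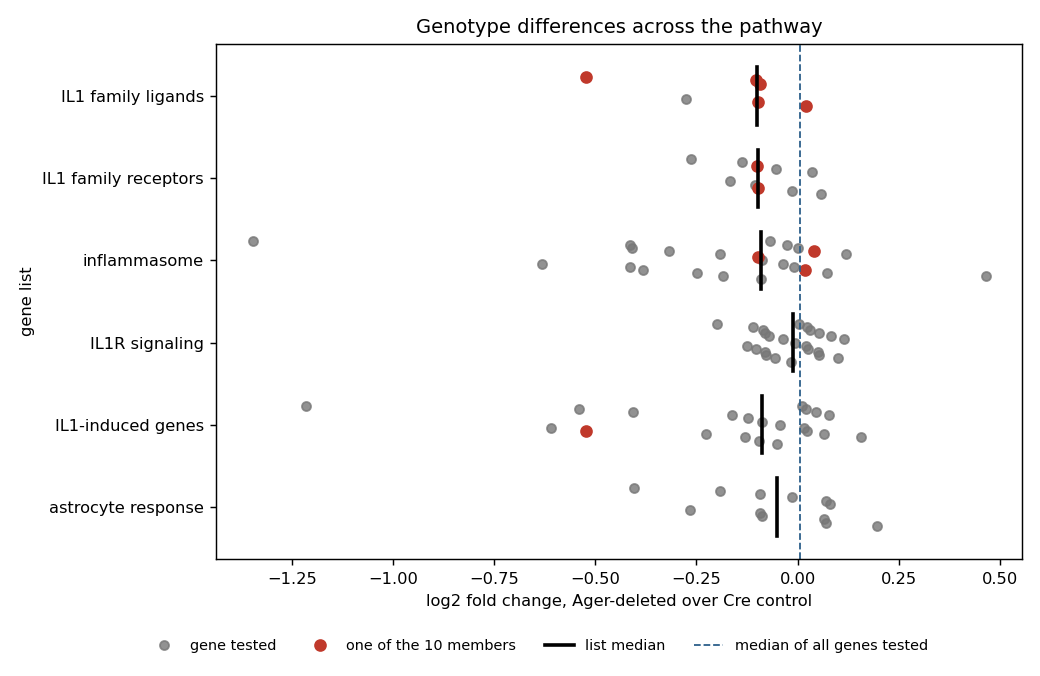
Log2 fold change, *Ager*-deleted over Cre control, of every tested gene (points) in 6 lists, with the 10 genes described here in red, list medians as black bars and the median of all 19470 genes (0.01) as a dashed line. The list medians lie between -0.10 and -0.01, and 0 of the points passed the test.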

How the data were processed

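RNA from the lumbar spinal cord of 8 mice was sequenced from polyadenylated, stranded libraries. Per the submitters' notes and methods, the authors trimmed reads with Trimmomatic 0.36, aligned them to mm10 with STAR 2.7.3a and counted them per gene with featureCounts (Subread 1.6.3). The strand setting of the counting is not given in the sources used here. On GRCm38 annotation *Il1a*, *Il1b*, *Il1rap* and *Pycard* share exon bases with genes on the opposite strand, and their counts are uncertain to that extent. The authors deposited raw counts for 55291 genes, and every test used these counts. The deposited log2 values, TMM-normalized by the authors in edgeR (3.26.8 in the submitters' notes, an earlier version in the study's methods), served only as a check: they covered the same 19470 genes and differed by at most 4.78e-06 from values recomputed here.

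Mice were grouped by the genotype in their labels, 4 against 4. Counts were filtered with filterByExpr (minimum 10), normalized by TMM and tested in edgeR 4.0.16 (R 4.3.3) with the exact test, adjusted by Benjamini-Hochberg over 19470 genes at 0.05. Standard errors and 95% CIs are from edgeR's quasi-likelihood fit. For single mice, TMM-normalized CPM were compared on log2(CPM + 1) by exact two-sided permutation over 70 assignments. The tests were first run on simulated counts with known changes. Mice are separate animals, floors from counts cover counting error only, and the CIs cover the spread between mice. Gene models are from GENCODE M21, an earlier release than the one the authors used. Alternatives were other normalizations, filters, pseudocounts and tests (DESeq2 1.42.0, limma 3.58.1), a skeletal muscle covariate, and mice left out. Subtraction of the microglial marker level and the relations with it were added after the data were seen. The 10 genes and all lists, written by hand, were chosen with earlier results of these data known. Pathway genes were named by rule: any past the threshold, the 3 smallest p among those under 0.05, and the most abundant of each list. *Ikbkg* was named outside this rule, after its values were seen.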

Additional observations from a re-analysis of the deposited data

Results flagged for a closer look

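*Il1rn* in the *Ager*-deleted mice was flagged because E5231 (3.67 CPM) stood far above the other 3 mice (1.83 to 1.98 CPM), a gap that makes up 0.899 of the range of the group. *Il33* in the *Ager*-deleted mice was flagged because E5248 (211 CPM) stood far below the other 3 (254 to 256 CPM), a gap of 0.972 of the range. Both exceed the 95% critical value of Dixon's ratio for 4 mice. That ratio flags about 1 in 20 groups by chance, and 2 of 22 groups examined (the 10 genes and *Ager* in each genotype) were flagged. E5231 also had the highest and E5248 the lowest microglial marker level of the 8 mice.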

How the results depend on the processing

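The count of 0 of 10 genes past the threshold was the same in all 19 alternatives. The number of genes called across the table, 14 in the reported fit, was 5 with a minimum of 50 counts in 4 mice, 1 with the quasi-likelihood test, 25 with DESeq2, 1 with limma-voom, 78 with common and tagwise dispersions, 1 with a skeletal muscle covariate, 67 without controls E5386 and E5642, and 3 to 98 with 1 mouse left out. The IL-1-induced genes gave 0 to 1 calls with 1 mouse left out; the 1 call, made without control E5386, was *Steap4* (log2 fold change -0.93, adjusted p = 0.0215 in edgeR's exact test), and the cause was not tested.

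Directions near 0 turned. With the muscle covariate, and without E5386 and E5642, the log2 fold change was 0.078 and 0.059 for *Il1rn*, 0.045 and 0.022 for *Il1r1*, and -0.053 and -0.037 for *Il33*; that of *Nlrp3* kept its direction at 0.27 and 0.28. Without these controls the per-mouse difference in log2(CPM + 1) was 0.017 for *Il1rn*, 0.024 for *Il1r1* and -0.034 for *Il33*. After subtraction of the microglial marker level, an alternative chosen after seeing the data, it was 0.0073 for *Il1a*, 0.0058 for *Il1rn*, 0.028 for *Il1r1*, 0.0092 for *Il1rap* and 0.016 for *Il18*. With 1 mouse left out, the log2 fold change ranged from -0.30 to 0.0025 for *Il1a* (above 0 without E5568), -0.41 to 0.0017 for *Il1rn* (E1776 or E5568), -0.19 to 0.069 for *Il1r1* (E5642), -0.11 to 0.11 for *Il33* (below 0 without E5231, E5568 or E5642), -0.28 to 0.027 for *Casp1* (E5248), -0.10 to 0.12 for *Nlrp3* (E1776, E5231, E6578 or E6732) and -0.11 to 0.12 for *Pycard* (E5231). The per-mouse difference ranged from -0.15 to 0.071 for *Il1r1*, -0.11 to 0.14 for *Il33*, -0.26 to 0.0075 for *Casp1*, -0.081 to 0.096 for *Nlrp3* and -0.099 to 0.096 for *Pycard*. For every reversal the cause was not tested. *Il1b*, *Il1rap* and *Il18* kept a log2 fold change below 0 in all 19 alternatives, at -0.75 to -0.31, -0.15 to -0.03 and -0.13 to -0.06 with 1 mouse left out. Of the other pathway genes named, *Serpina3n*, *C3* and *Tollip* took both directions over the alternatives, and *Aim2*, *Nlrc4*, *Nlrp6*, *Nek7* and *Ptgs2* stayed below 0. The smallest adjusted p of any of the 10 genes in any alternative was 0.793.

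Depth limits *Il1b*, at 25 to 99 counts per mouse, more than the other genes. No paired analysis was possible because the labels give each mouse an individual ID and no link between mice of different genotypes.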
